A study of Mus musculus with 18 samples.

Results

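Transcripts of 10 genes that mark macrophages were followed in whole lungs of mouse embryos: Csf1r, Cd68, Mrc1, Ptprc, C1qa, C1qb, Cx3cr1, Lyz2, Aif1 and Fcgr1. They were chosen by symbol, as 10 of the 23420 gene entries in each of 3 expression tables, and all 10 had enough reads to be tested in each table. The question was whether macrophage transcripts changed when the lung epithelium lost mTOR complex 1, through its component Rptor, or mitochondrial function, through Tfam or Cox10. Tfam packages mitochondrial DNA and starts its transcription, and Cox10 is needed to assemble cytochrome c oxidase. RNA-seq had been performed on 18 lung samples at 14.5 days post coitus (dpc), with 3 control and 3 deficient samples in each of 3 lines.

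Deficient lungs were Rptorf/f; ShhCre/+, Tfamf/f; ShhCre/+ or Cox10f/f; ShhCre/+. The controls were littermates that carried 1 floxed allele, Rptorf/+; ShhCre/+, Tfamf/+; ShhCre/+ or Cox10f/+; ShhCre/+, so that all 18 samples carried the Cre. This Cre is a knock-in at Shh, so every sample, control or deficient, also had 1 disrupted Shh allele. Shh is expressed in the lung epithelium, and macrophages are not among the cells in which this Cre is used to delete genes. Embryos of both sexes were used, and mutants from different litters were combined. The labels do not say whether a sample was 1 lung, and the p-values measure the spread between these samples, which may be partly technical.

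Fetal lung macrophages are immune cells that descend from early progenitors of the yolk sac and fetal liver and settle in the mesenchyme around the growing airways. They depend on the receptor Csf1r and its ligands Csf1 and Il34, and they take up dying cells, sense them through scavenger and phosphatidylserine receptors, and make the C1q proteins that start the classical complement pathway. In RNA from whole lung, more macrophages, more RNA per macrophage and less RNA from other cells cannot be told apart. All values below are normalised read counts, that is, read counts divided by a size factor for each sample. These normalised counts summed to between 27727202 and 29611064 per sample. A fold change is on the scale of log2(value + 1), deficient over control, and a gene passed the test when its p-value from limma, adjusted over all genes tested in the line, was below 0.05.

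PU.1 is the transcription factor that most macrophage genes require, and its binding core is GAGGAA. Promoters of 300 bases, from 250 before to 50 after the start of transcription, were taken from RefSeq (build GRCm38.p6) for 8 of the 10 genes. They fill 9 windows, since Ptprc has a pair of starts. On either strand, 6 of the 9 windows held GAGGAA, against 28.3% of the 32851 promoters of all genes. They were those of Mrc1, Fcgr1, C1qb, Ptprc (at 1 of its starts), Cd68 and Aif1, and the motif did not occur in the windows of Cx3cr1 and Lyz2. The C/EBP pattern TTNCNNAA occurred in 4 of the 9 windows (40.7% of all promoters) and the AP-1 pattern TGANTCA in 1, that of Cd68 (7.81% of all promoters). The 3 stretches below run from 200 to 25 bases before the start and show the GAGGAA matches in capitals, where TTCCTC is the same motif read on the other strand. They are shown because Mrc1, whose rise in Rptor-deficient lungs was the smallest of the 10, had the most matches, with 3, while Fcgr1 and C1qb had 1 each. Mrc1 lies at chr2:14229214-14229389 on the plus strand, Fcgr1 at chr3:96293994-96294169 on the minus strand and C1qb at chr4:136886225-136886400 on the minus strand.
Mrc1: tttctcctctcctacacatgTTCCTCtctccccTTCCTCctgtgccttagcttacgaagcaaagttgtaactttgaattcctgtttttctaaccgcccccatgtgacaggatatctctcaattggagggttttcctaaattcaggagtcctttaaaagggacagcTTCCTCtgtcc
Fcgr1: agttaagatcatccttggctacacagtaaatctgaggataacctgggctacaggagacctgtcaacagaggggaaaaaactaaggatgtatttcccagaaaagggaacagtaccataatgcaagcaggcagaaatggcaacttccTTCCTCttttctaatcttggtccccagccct
C1qb: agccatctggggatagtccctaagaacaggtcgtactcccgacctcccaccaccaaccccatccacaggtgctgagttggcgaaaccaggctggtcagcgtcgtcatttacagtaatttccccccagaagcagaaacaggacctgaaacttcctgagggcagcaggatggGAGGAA
A match is a run of letters and not a measured binding site.

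The targeted genes do not check the labels here. Whole lung holds many cells in which no gene was deleted and the counts cover whole genes, and the part of either in these values was not tested. Rptor was at 2239.6 ± 52 (SD, n = 3) in controls of its line and 2149 ± 254 in the deficient samples, Tfam at 1102 ± 72.5 and 1013 ± 85.1 in its own line, and Cox10 at 797 ± 38 and 794 ± 44.7, and none of these 3 differences passed the test (adjusted p = 0.57, 0.472 and 0.979). In the Rptor line Cox10 was lower, at 764 ± 26.1 in controls and 594 ± 15.2 in deficient samples (-0.36, adjusted p = 0.00553). Of 12 epithelial genes 11 (Rptor), 6 (Tfam) and 2 (Cox10) were lower, and none was called higher.

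In Rptor-deficient lungs all 10 macrophage genes were higher than in controls, by 1.28-fold for Mrc1 to 2.18-fold for C1qa. Among all 14940 genes tested in this line 16.6% were called higher and 18.2% lower. The median log2 fold change of the 10 genes was 0.79, and that of all genes was 0.0083. For 9 of the 10 genes, Lyz2 being the exception, the 3 deficient values all lay above the 3 control values, which held for 24.3% of all genes. Mesenchymal markers were higher in the same lungs too (9 of 12, median 0.73). Set relative to them, 2 of the 10 passed, C1qa higher and Mrc1 lower, and Cd68, Lyz2 and Fcgr1 were also below 0, while 4 of the 10 passed relative to endothelial markers. On these 2 scales 12269 and 8928 of all 14940 genes were called in either direction, with medians of all genes at -0.74 and -0.38.

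**Figure D1:**
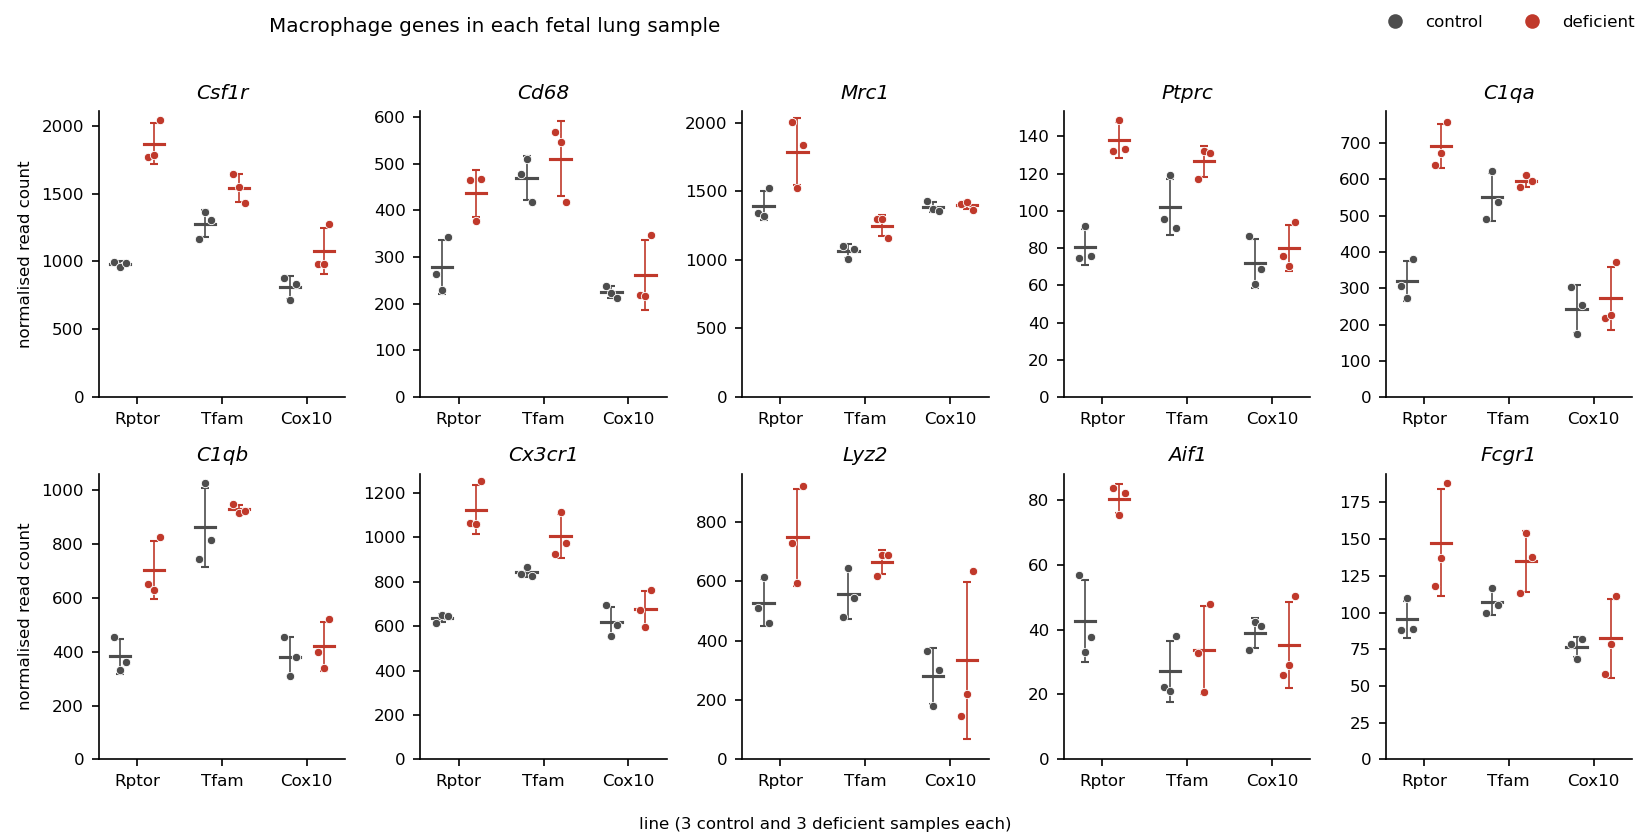
Normalised read count (y axis, from 0) of each of the 10 genes in the 18 samples, grouped by line on the x axis; grey points are control and red points deficient samples, horizontal bars are means and vertical bars 1 SD (n = 3). Control and deficient points of the Rptor line are separate in 9 panels and overlap in that of Lyz2, and C1qa shows the widest ratio, 2.18-fold.

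Csf1r, the receptor that macrophages need to survive, was at 998, 957 and 985 in the 3 controls and at 1770.3, 1787 and 2041 in the 3 Rptor-deficient samples. The groups were far apart and the controls within a few percent of each other, and the difference was 0.93 (SE 0.072, adjusted p = 8.83e-05). Cx3cr1, the receptor for the chemokine Cx3cl1 and a mark of macrophages from early progenitors, was at 614, 649 and 644 in controls and at 1065, 1058 and 1252 in deficient lungs. It rose by 0.82 on the log2 scale (SE 0.084, adjusted p = 0.000327). These 2 receptors had the smallest standard errors of the 10 genes in this line.

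C1qa and C1qb encode 2 of the 3 chains of C1q. The genes lie with C1qc, which encodes the last chain, within 18675 bases of chromosome 4, in the order C1qb, C1qc, C1qa on the minus strand. Their transcripts shared no identical stretch of 50 bases. Whether reads of one were counted for another was not tested. C1qa was at 305, 273 and 381 in controls and at 641, 674 and 759 in Rptor-deficient lungs, a difference of 1.12 (SE 0.13, adjusted p = 0.000568). C1qb went from 453, 332 and 361 to 649.6, 629.8 and 825, a difference of 0.88 (SE 0.14, adjusted p = 0.00245). C1qc, which was not among the 10 genes, rose by a similar amount, 0.94 (adjusted p = 0.000793). All 3 chains were higher in each deficient sample than in any control.

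Cd68 is a glycoprotein of lysosomes, Lyz2 the secreted lysozyme of myeloid cells and Aif1 an actin-binding protein of macrophages and microglia. Cd68 was at 264, 229 and 343 in controls and at 464, 378 and 468 in Rptor-deficient lungs, a difference of 0.66 (SE 0.16, adjusted p = 0.0133). Aif1, one of the least abundant of the 10, was at 56.8, 33.0 and 37.8 in controls and at 83.6, 75.3 and 82.0 in deficient lungs. Its difference of 0.94 was among the larger ones but also the least precise (SE 0.23, adjusted p = 0.0133). Lyz2 was at 509, 614 and 459.5 in controls and at 729, 593 and 920 in deficient lungs. Deficient replicate 2 lay below the highest control, and the difference of 0.49 barely passed (SE 0.16, adjusted p = 0.0483; 0.0571 with the replicate number as a block). Alveolar type 2 cells also make Lyz2. It shares 15.4% of its 50-base stretches with its neighbour Lyz1, which was at 0 to 5.93 in all 18 samples.

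Mrc1, the mannose receptor CD206, takes up glycoproteins and is also made by some endothelial cells. It was at 1345, 1323 and 1522 in controls and at 2004, 1524 and 1840 in Rptor-deficient lungs, and the lowest deficient value was almost the same as the highest control. Its rise of 0.35 was the smallest of the 10 (SE 0.10, adjusted p = 0.0308). Fcgr1, the high-affinity receptor for IgG, was at 87.8, 109.9 and 88.5 in controls and at 118, 137 and 188 in deficient lungs, a difference of 0.60 (SE 0.20, adjusted p = 0.0418). Ptprc, or CD45, the phosphatase on the surface of all leukocytes, was at 74.8, 91.9 and 75.6 in controls and at 132, 149 and 133 in deficient lungs, a difference of 0.77 (SE 0.15, adjusted p = 0.00533). The values of Ptprc did not come near each other, while those of Mrc1 and Fcgr1 did.

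The calls of Csf1r, Ptprc, C1qa, C1qb and Cx3cr1 remained when any 1 of the 6 samples of the Rptor line was left out. Without control replicate 2 those of Cd68 (adjusted p = 0.0501), Aif1 (0.0505), Mrc1 (0.107) and Fcgr1 (0.0566) were lost. Mrc1 was also lost without control replicate 1 (0.0923), deficient replicate 1 (0.0576) or deficient replicate 3 (0.0805), and Lyz2 without control replicate 1 (0.118), control replicate 3 (0.149), deficient replicate 1 (0.0643) or deficient replicate 3 (0.128). Fcgr1 passed only while all 6 samples or all but deficient replicate 1 were used, with adjusted p = 0.115 without control replicate 1, 0.116 without control replicate 3, 0.0748 without deficient replicate 2 and 0.121 without deficient replicate 3.

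Deficient replicate 3 of the Rptor line had the highest value of the 6 samples for 7 of the 10 genes, against 18% of all genes tested. It was also the highest for 10 of 13 endothelial genes and all 4 erythroid genes tested, and its erythroid sum was 5003 against 2833 and 2778 in deficient replicates 1 and 2. The part of these cells in its macrophage values was not tested. Without it 7 of the 10 genes passed, at 0.61 to 1.05.

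**Figure D2:**
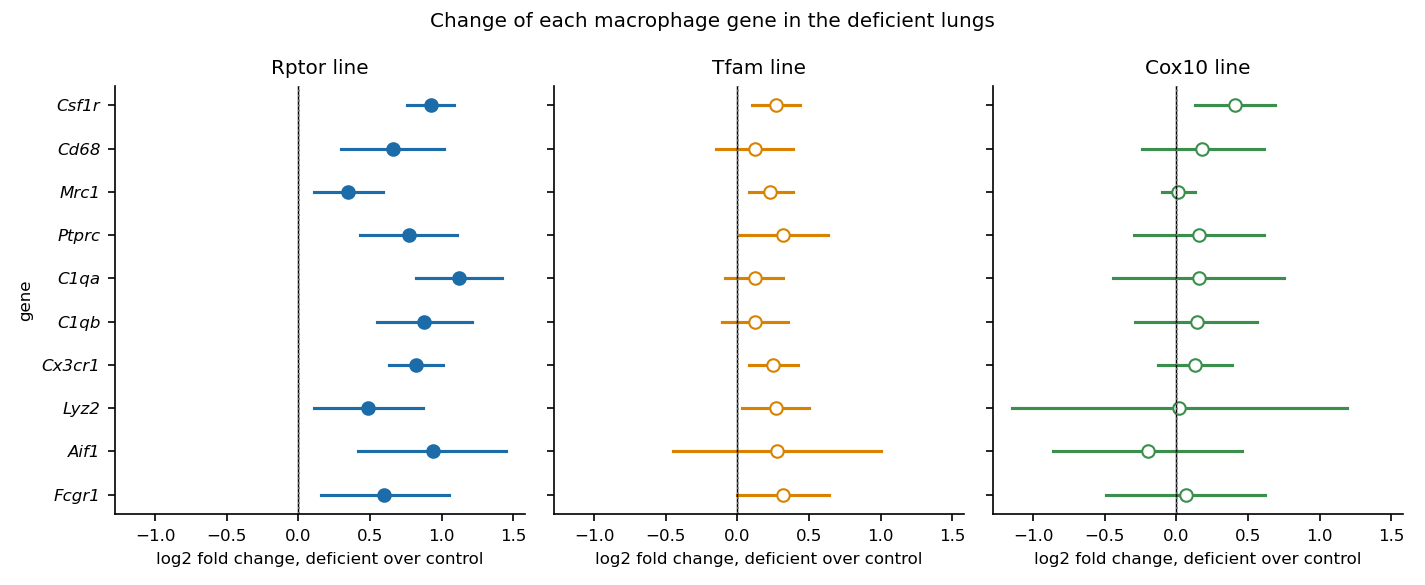
Log2 fold change of each gene (x axis, deficient over control) with its 95% confidence interval in the Rptor, Tfam and Cox10 lines; filled circles passed the test, open circles did not, and the dotted line is the median of all genes tested, which lies at 0 at this scale. All 10 circles are filled in the Rptor line, from 0.35 to 1.12, and all are open in the other lines.

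In Tfam-deficient lungs none of the 10 genes passed the test by limma, though all 10 estimates were above 0. With Xist, the transcript of the inactive X chromosome, as a covariate meant for sex, Csf1r passed (0.31, adjusted p = 0.0187). Xist was at 43497, 5265 and 21675 in Tfam controls and at 10224, 38641 and 40317 in Tfam-deficient samples. These values are graded, so the covariate does not sort the samples of this line by sex. Among all 15053 genes tested 2.03% were called higher and 2.63% lower. Unadjusted p-values were below 0.05 and the value higher for 5 of the 10, Csf1r, Mrc1, Ptprc, Cx3cr1 and Lyz2, against 8.29% of all genes. The deficient values were all above the control values for Csf1r, Mrc1 and Cx3cr1, which held for 10.9% of all genes. The median of the 10 log2 fold changes was 0.26, and that of all genes was 0.00098.

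Csf1r was at 1168, 1363 and 1303 in Tfam controls and at 1645, 1545 and 1434 in Tfam-deficient lungs, a difference of 0.27 (95% interval 0.10 to 0.44, adjusted p = 0.0791). Cx3cr1 was at 837, 865 and 825 and at 926, 1115 and 975, a difference of 0.25 (0.078 to 0.42, adjusted p = 0.112). Mrc1 was at 1103, 1006 and 1082 and at 1296, 1295 and 1162, a difference of 0.23 (0.079 to 0.39, adjusted p = 0.0957). In these 3 genes every deficient sample was above every control, by a small margin.

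Both C1q genes overlapped in the Tfam line. C1qa was at 492, 624 and 539 in controls and at 579, 611 and 595 in deficient lungs, and C1qb at 745, 1025 and 813 and at 948, 915 and 922. In each of these genes the highest value of all belonged to control replicate 2. Their differences were both 0.12, with intervals from -0.087 to 0.32 for C1qa and from -0.11 to 0.35 for C1qb. Lyz2 differed by 0.27 (0.033 to 0.50), Ptprc by 0.32 (0.0052 to 0.63), Fcgr1 by 0.32 (-0.00094 to 0.64), Cd68 by 0.12 (-0.15 to 0.39) and Aif1 by 0.28 (-0.45 to 1.00). Aif1 was at 22.4, 21.2 and 38 in controls and at 32.8, 20.8 and 47.9 in deficient lungs, with SDs of 0.45 and 0.58 on the log2 scale, against medians of 0.29 and 0.27 for genes of like level.

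In Cox10-deficient lungs none of the 10 genes passed either, and 9 of 10 estimates were above 0, with a median of 0.13 against 0.0014 over all genes. Among all 14937 genes tested 0.141% were called higher and 0.335% lower, so few genes of any kind passed in this line. Csf1r, 1 gene of the 10, had an unadjusted p below 0.05 and was higher, against 6.4% of all genes, and it was also the 1 gene whose groups did not overlap, which held for 10.6% of all genes. Csf1r was at 874, 715 and 835 in Cox10 controls and at 979, 983 and 1272 in deficient lungs, a difference of 0.41 (95% interval 0.13 to 0.69, adjusted p = 0.252). In a single fit of all 18 samples its adjusted p was 0.0386.

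The 3 Cox10-deficient samples were not alike. Deficient replicate 3 had the highest value of the 6 samples for 9 of the 10 genes, all but Mrc1, and averaged 0.52 above the controls on the log2 scale, whereas deficient replicates 1 and 2 averaged -0.14 and -0.063. C1qa was at 303, 173 and 253 in controls and at 218, 227 and 373 in deficient lungs, and C1qb at 453, 308 and 381 and at 398, 339.9 and 520. Lyz2 was at 365, 179.5 and 299.8 in controls and at 145, 221 and 636 in deficient lungs, so that its highest deficient value was 4.37 times the lowest. The surfactant gene Sftpc, a product of type 2 cells, was also far higher in deficient replicate 3, at 4084 against 386 and 562, and its part in the Lyz2 value was not tested. The same sample was the highest of the 6 for 11 of 13 endothelial genes, 9 of 12 mesenchymal genes and 7 of 8 type 2 genes, against 30.7% of all genes tested. Its endothelial sum was 46947, against 32798 and 29733 in deficient replicates 1 and 2, and the part of these cells in the macrophage values was not tested. Without deficient replicate 3 the estimates of Cd68, C1qa, C1qb, Lyz2 and Fcgr1 were below 0, at -0.037, -0.091, -0.03, -0.59 and -0.17. Aif1, at -0.20 with all 6 samples, was below 0 in every fit that left out 1 sample (-0.48 to -0.017). Mrc1 varied least in the Cox10 line, at 1429, 1372 and 1359 and at 1405, 1423 and 1365, a difference of 0.012 with an interval from -0.10 to 0.13.

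**Figure D3:**
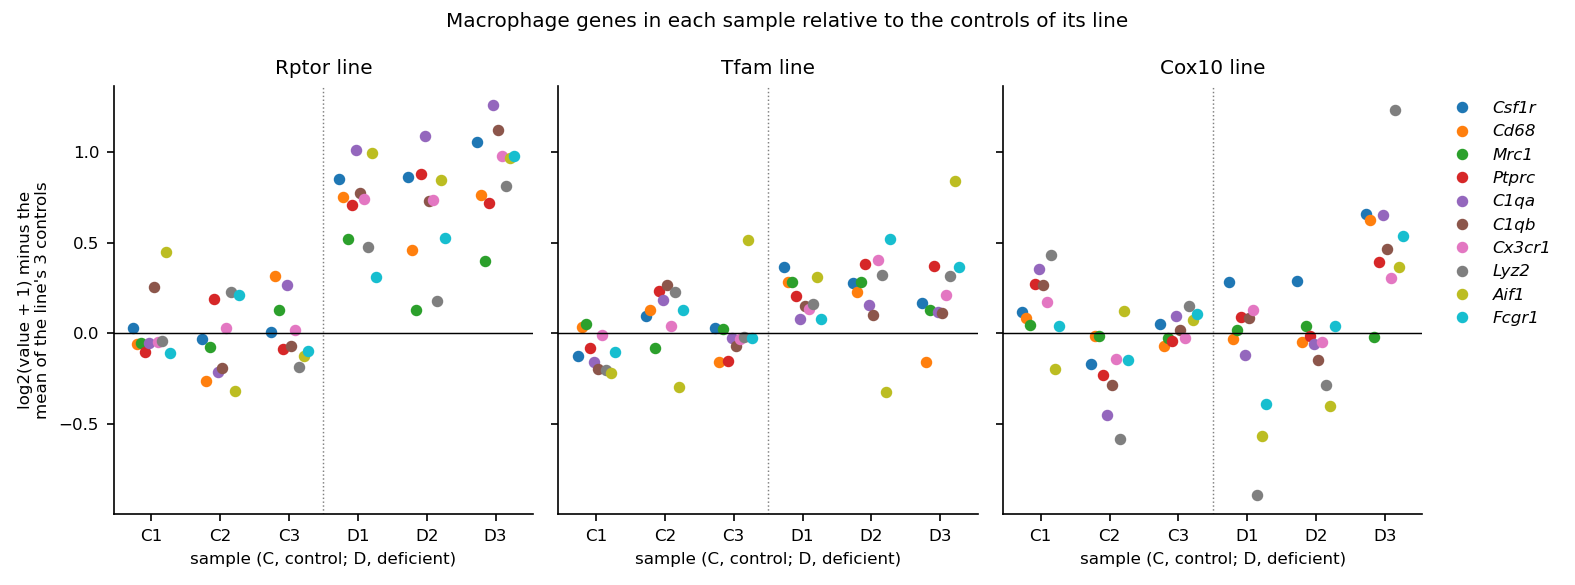
Log2(value + 1) of each gene (colours) in each sample, minus the mean of the 3 controls of the same line (y axis), with control (C1 to C3) and deficient samples (D1 to D3) of the 3 lines on the x axis. The Rptor-deficient samples average 0.72, 0.64 and 0.91, and in the Cox10 line D3 averages 0.52 and stands above D1 and D2.

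Whether the lines differed was tested directly, as the difference between their fold changes in a fit of all 18 samples. The lines share no control samples. For 4 of the 10 genes Rptor-deficient lungs showed the larger rise of this pair with Tfam-deficient lungs, against 4.83% of 14548 genes. These were C1qa (difference 1.01, SE 0.28, adjusted p = 0.0281), C1qb (0.76, SE 0.24, adjusted p = 0.0478), Csf1r (0.66, SE 0.14, adjusted p = 0.00751) and Cx3cr1 (0.57, SE 0.14, adjusted p = 0.0154). Against the Cox10 line it was larger for 3 of the 10, against 3.28% of genes: C1qa (0.96, SE 0.28, adjusted p = 0.0423), Cx3cr1 (0.69, SE 0.14, adjusted p = 0.0055) and Csf1r (0.52, SE 0.14, adjusted p = 0.0326). The other genes differed by 0.12 to 0.66 between Rptor and Tfam and by 0.34 to 1.14 between Rptor and Cox10 without passing. Between the Tfam and Cox10 lines none of the 10 passed by limma, none had an unadjusted p below 0.05, and the differences ran from -0.14 to 0.48, where 0.055% of all genes passed in either direction. For Mrc1 the Rptor and Tfam effects, 0.35 and 0.23, differed by 0.12 with an interval from -0.13 to 0.37.

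These differences depended on single samples. The count against the Cox10 line was 8 of 10 without Cox10-deficient replicate 3. It was 1 of 10 without Rptor control replicate 2, Rptor-deficient replicate 3, Cox10 control replicate 1 or 3, or Cox10-deficient replicate 1 or 2. Against the Tfam line it was 2 of 10, Csf1r and Cx3cr1, without Rptor control replicate 2, Rptor-deficient replicate 3, Tfam control replicate 2 or any 1 Tfam-deficient sample. Cx3cr1 passed in all 12 such fits of either pair. With the replicate number as a block 5 of 10 differed from the Cox10 line, C1qb (adjusted p = 0.0361) and Aif1 (0.0408) being added.

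The differences also depended on the scale. Relative to the mean of mesenchymal or of endothelial genes, scales described with the markers of other cells below, none of the 7 passed. On the mesenchymal scale those of Cx3cr1 with Tfam and of Csf1r with Cox10 turned to -0.043 and -0.03, and Mrc1 was the 1 gene to pass, with an effect lower in the Rptor than in the Tfam line (-0.49, adjusted p = 0.0126).

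To set the genes against each other, values were divided by the length of the longest coding transcript. In Rptor controls Lyz2 was the most abundant, at 401 ± 60.1 normalised reads per kilobase (SD, n = 3), followed by C1qb (351 ± 58.0), C1qa (307 ± 53.4), Mrc1 (259.9 ± 20.3), Cd68 (227 ± 47.6), Csf1r (208 ± 4.46) and Cx3cr1 (141 ± 4.18). Aif1 (48.6 ± 14.4), Fcgr1 (36.8 ± 4.85) and Ptprc (15.9 ± 1.90) came last. The ranges of neighbours in this order overlapped from Lyz2 down to Csf1r and between Aif1 and Fcgr1. Every Csf1r value was above every Cx3cr1 value, every Cx3cr1 value above every Aif1 value, and every Fcgr1 value above every Ptprc value. In Rptor-deficient lungs C1qa (665 ± 58.3) and C1qb (645 ± 98.8) came first and Lyz2 (568 ± 125) next. In the Tfam and Cox10 lines C1qb led in both groups, at 791 ± 134 in Tfam controls and 349.6 ± 66.6 in Cox10 controls, although the 3 tables were normalised separately and levels between them were not tested.

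**Figure D4:**
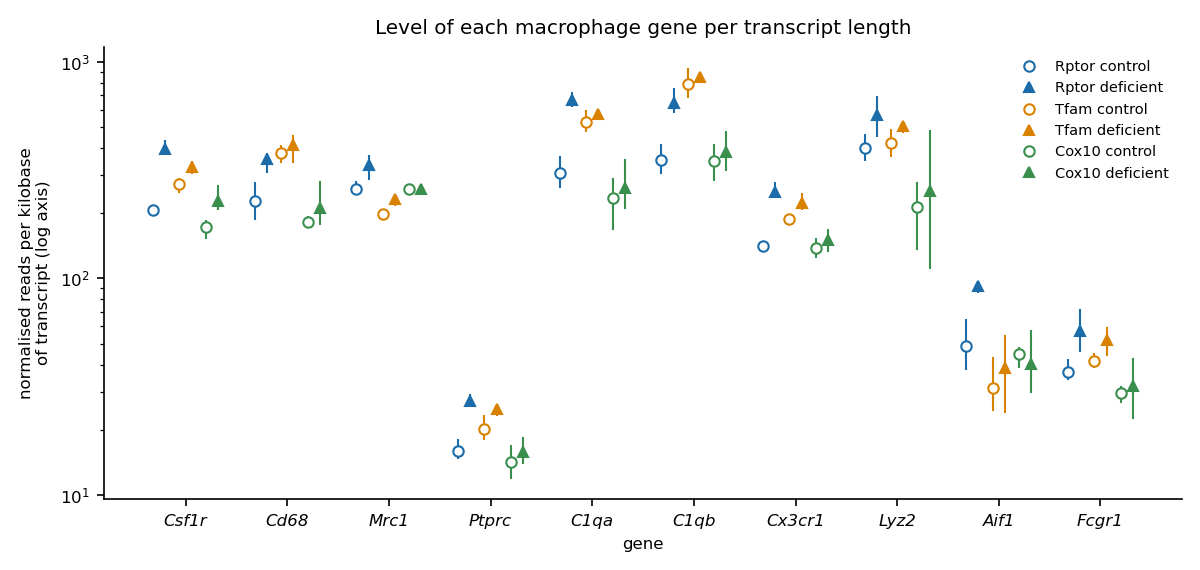
Mean level of each gene per kilobase of transcript (y axis, log scale) in the 6 groups; open circles are controls, filled triangles deficient samples, colours the lines, and vertical lines the range of 3 samples. C1qb is among the 2 highest in all 6 groups, and Ptprc, at 15.9 in Rptor controls, is the lowest in each.

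The 10 genes did not all vary together. Over 18 samples, each centred on the mean of its line, Pearson's r between a gene and the mean of the other 9 was 0.94 for C1qa and Cx3cr1, 0.93 for Csf1r and 0.58 for Aif1. These values hold the differences between groups. With each sample centred on its own group, r was 0.89 for Csf1r, C1qa and Lyz2, but 0.12 for Aif1 and -0.03 for Mrc1. These correlations describe samples that share a tissue and have no p-value.

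Among the 14538 other genes tested in all 3 lines, the 10 whose pattern over the 18 samples was most like the mean of the macrophage genes had Pearson's r from 0.95 to 0.97. Ctsd, the lysosomal protease cathepsin D, and C1qc led, both at 0.97 and with 0.93 and 0.96 within groups. Lipa, the lysosomal acid lipase, and Lgmn, the lysosomal protease legumain, were at 0.96. Myo1f, a myosin of leukocytes, was at 0.97, Vav1, an exchange factor of blood cells, and the amino acid transporter Slc7a8 at 0.96, and Trem2, a lipid receptor of macrophages, at 0.95. B3gnt9 (0.97) and Prkar1b (0.95) completed the list. Ctsd had log2 fold changes of 0.68 (Rptor), 0.13 (Tfam) and 0.16 (Cox10), and Lipa of 0.65, 0.18 and 0.18.

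Most other macrophage genes tested were also higher in Rptor-deficient lungs. Of 25 such genes 18 were higher and none was called lower, with a median of 0.70 and a range from -0.35 to 1.82. Ms4a7, a membrane protein of macrophages, rose from 16.0, 24.0 and 36.8 to 66.3, 88.1 and 117 (1.82, adjusted p = 0.00372). Mpeg1, the pore-forming protein perforin-2, rose by 1.46 (adjusted p = 0.00101), the inhibitory receptor Cd300a by 1.36 (adjusted p = 0.0014) and Trem2 by 1.18 (adjusted p = 0.00193). Itgam and Itgb2, the chains of the CD11b integrin, did not pass, at 0.31 and 0.19 (adjusted p = 0.177 and 0.559). In Tfam-deficient lungs 3 of 26 passed, all higher: Cybb, the catalytic subunit of the phagocyte oxidase (0.70, adjusted p = 0.00484), Fcgr3 (0.44, adjusted p = 0.0162) and Mpeg1 (0.35, adjusted p = 0.0261). All 26 estimates were above 0 there, with a median of 0.29. Of the 26, 12 were higher with an unadjusted p below 0.05, against 8.29% of all genes. None of 25 passed by limma in Cox10-deficient lungs, where 3 had an unadjusted p below 0.05 and the median was 0.29.

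Transcription factors of macrophages split. In the Rptor line 5 of 11 were called higher and none was called lower. Irf8, a factor needed for the macrophage lineage, was at 211, 212 and 235 in controls and at 578, 492 and 687 in deficient lungs (1.40, adjusted p = 0.000212). Maf rose by 1.36 (adjusted p = 2.16e-05), Irf5 by 0.70 (adjusted p = 0.0358) and Cebpa by 0.65 (adjusted p = 0.00207), whereas Runx1, shared with other blood cells, was at -0.097 (adjusted p = 0.541). Irf8 and Maf also rose in Tfam-deficient lungs, by 0.53 and 0.45 (adjusted p = 0.00772 and 0.00154). In the Cox10 line these genes were at 0.39 and 0.43, and none of the 11 passed by limma (3 at an unadjusted p below 0.05).

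The ligands of Csf1r and Cx3cr1 did not pass the test in any line. Csf1, the main ligand of Csf1r, was at 905, 635 and 701 in Rptor controls and at 826, 894 and 900.2 in deficient lungs (0.24, adjusted p = 0.166), and Il34, the second ligand, differed by -0.091 (adjusted p = 0.802). Cx3cl1, the ligand of Cx3cr1, was at 240.3, 209 and 182 in controls and at 161, 94.1 and 162 in deficient lungs, a difference of -0.63 that did not pass (adjusted p = 0.0563). Of the 10 ligands and recruitment signals tested, the chemokine Ccl3, which macrophages make themselves, rose by 1.55 from 3.98 to 15.0 in controls to 17.8 to 50 in deficient lungs (adjusted p = 0.0469), and Mif, the macrophage migration inhibitory factor, fell by 0.86 on the log2 scale (adjusted p = 0.00207). None of these genes passed by limma in the Tfam line (10 tested, 1 at an unadjusted p below 0.05) or the Cox10 line (9 tested, 0 at an unadjusted p below 0.05).

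Complement genes beyond C1qa and C1qb were higher in the Rptor line for 6 of 10, with a median of 0.77. C2, the protease of the classical pathway, rose by 1.13 (adjusted p = 0.0199) and C3ar1, the receptor for C3a, by 1.00 (adjusted p = 0.00199). C1ra and the C1 inhibitor Serping1 rose by 0.88 and 0.67. C3 itself was at 913 in control replicate 1 against 60.9 and 33.8 in the other controls and 31.6 to 42.5 in deficient lungs, and it did not pass. No complement gene passed by limma in the Tfam line (11 tested, median 0.17, 4 at an unadjusted p below 0.05) or the Cox10 line (10 tested, median 0.22, 1 at an unadjusted p below 0.05).

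Of 16 genes for the clearance of dying cells, 10 were higher and 2 lower in Rptor-deficient lungs. The engulfment receptors Mertk and Axl rose by 0.47 and 0.58 (adjusted p = 0.00501 and 0.000731) while Tyro3, of the same receptor family, fell by 0.43 (adjusted p = 0.0027). Megf10, another engulfment receptor, rose in all 3 lines, by 1.77, 0.60 and 1.00 (adjusted p = 0.000278, 0.00127 and 0.00668), and was the 1 gene of this list to pass in Cox10-deficient lungs. The scavenger receptors Stab2 and Cd36, which endothelial cells also make, rose in Tfam-deficient lungs by 0.76 and 0.80 (adjusted p = 0.00052 and 0.0023). Of 10 genes for Fc receptors and antigen presentation 7 were higher in the Rptor line, among them Fcgr2b (0.99, adjusted p = 0.0155), H2-Ab1 (1.11, adjusted p = 0.0389), H2-Eb1 (1.04, adjusted p = 0.0306) and their activator Ciita (0.79, adjusted p = 0.0287). The class II genes were scarce, with H2-Ab1 at 12.0 to 19.9 in controls and 21.4 to 49.4 in deficient lungs. In the Tfam line Fcgr3 alone of 11 passed, and the class II genes Cd74, H2-Aa, H2-Ab1 and H2-Eb1 were at -0.38, -0.54, -0.33 and -0.58 without passing. In the Cox10 line none of 10 passed by limma (0 at an unadjusted p below 0.05). The lists share genes, so their counts are not separate. Fcgr3, Fcgr2b, Fcer1g, C1qc, Trem2 and Timd4 were also counted with the other macrophage genes, and Stab2 with the endothelial genes.

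**Figure D5:**
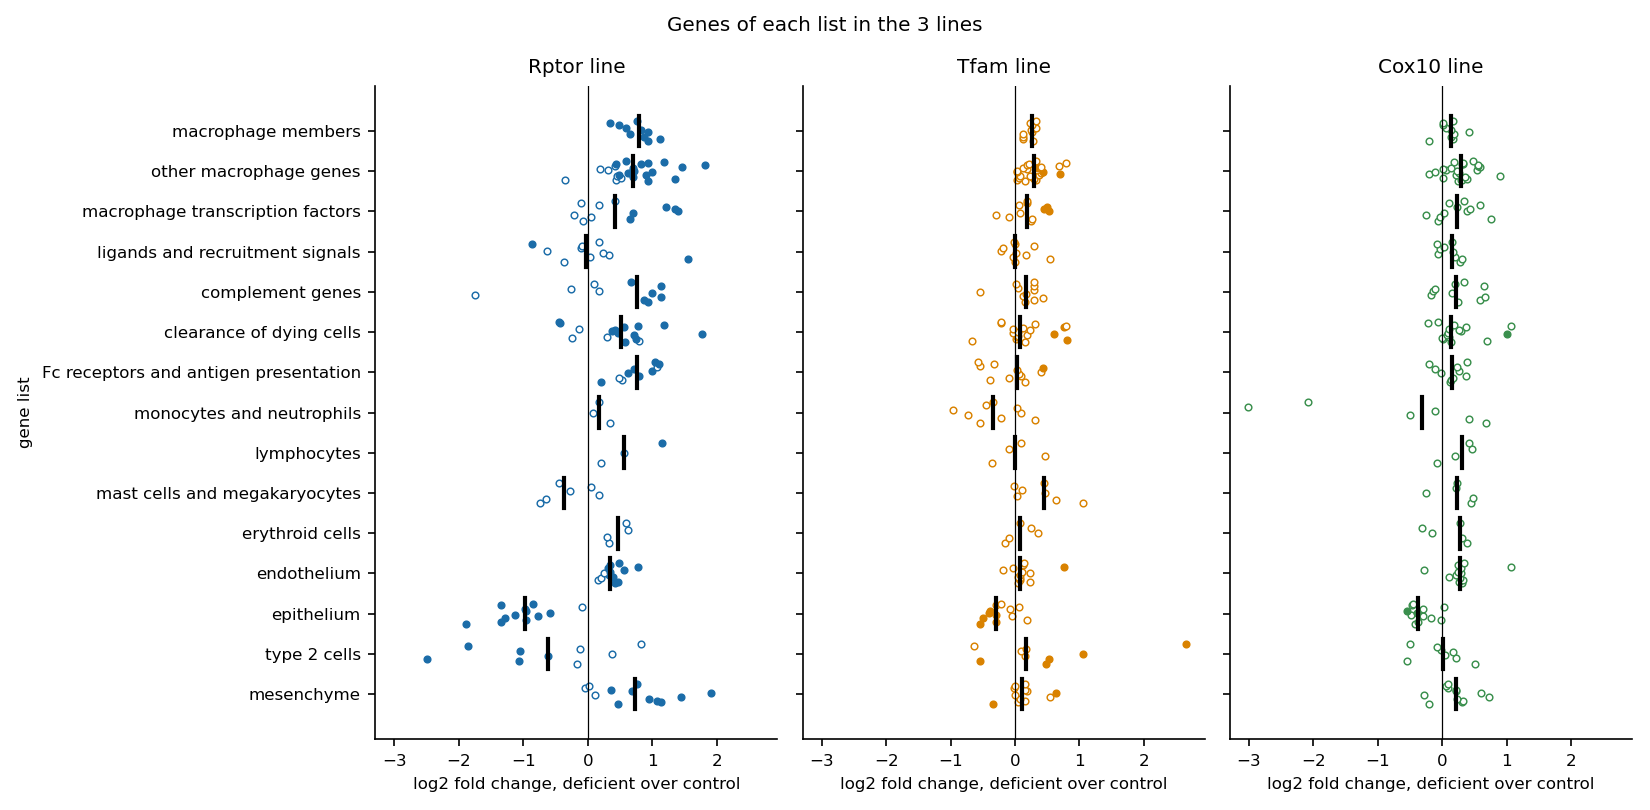
Log2 fold change (x axis, deficient over control) of each tested gene of 15 lists in the 3 lines; filled circles passed the test, open circles did not, and black bars are the medians of the lists. In the Rptor line the macrophage lists lie to the right with medians up to 0.79, as do the mesenchyme (0.73) and endothelium lists (0.35), and epithelium lies to the left (-0.97).

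Markers of other cells moved in the same lungs. In the Rptor line 9 of 12 mesenchymal genes were higher, with a median of 0.73, among them Lum (1.92), Dcn (1.44), Col1a1 (1.14) and Col1a2 (1.08). Their summed level ran from 210677 to 244777 in controls and from 418137 to 455178 in deficient lungs, of which the 3 collagens Col1a1, Col1a2 and Col3a1 made up 163521 to 193935 and 347908 to 376174. Of the list's 4 transcription factors Tcf21 rose by 0.77 (adjusted p = 6.10e-05), while Tbx4, Tbx5 and Foxf1 did not pass, at -0.037, 0.025 and 0.12 (adjusted p = 0.654, 0.877 and 0.11). Endothelial genes were higher for 10 of 13 (median 0.35; sums 41880.1 to 43464 and 51945 to 59012), led by Stab2 (0.78), Prox1 (0.57), Tie1 (0.49) and Cldn5 (0.47). Epithelial genes were lower for 11 of 12 (median -0.97), led by Cdh1 (-1.89), Krt8 (-1.35), Cldn6 (-1.34) and Elf3 (-1.28), and their sum went from 33264 to 34335 down to 14054 to 18187. Of 9 type 2 cell genes tested 5 were lower, with Lamp3 at -2.50, Sftpc at -1.86 and Etv5 at -1.07. The sum over the 10 macrophage genes went from 4612 to 4897 in controls up to 7005 to 8508.

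The part of these shifts in the macrophage result was not tested, but the genes can be set on the scale of another tissue. Relative to the mean log2 value of the 12 mesenchymal genes, each weighted alike, a scale on which the median of all genes sits at -0.74, 2 of the 10 passed in the Rptor line: C1qa remained higher (0.38, adjusted p = 0.0209) and Mrc1 was lower (-0.39, adjusted p = 0.00241). Of all 14940 genes tested 12269 were called there in either direction. On that scale Csf1r was at 0.18 and Cx3cr1 at 0.074, neither passing (adjusted p = 0.132 and 0.566). Relative to the endothelial genes, where the median of all genes sits at -0.38 and 8928 of 14940 genes were called in either direction, Csf1r (0.53), C1qa (0.73), C1qb (0.48) and Cx3cr1 (0.43) remained higher. The median rise of the 10 genes, 0.79, was thus near that of the mesenchymal genes, 0.73, and above that of the endothelial genes.

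In the Tfam line 6 of 12 epithelial genes were lower (median -0.29), 1 mesenchymal gene was higher (Lum, 0.64) and 1 lower (Acta2, -0.34), 1 endothelial gene was higher (Stab2), and of the type 2 genes 4 were higher, led by Slc34a2 (2.66), and 1 lower. In the Cox10 line 2 of 12 epithelial genes were lower and no mesenchymal, endothelial or type 2 gene passed by limma, though 5 of 12, 1 of 13 and 2 of 8 had an unadjusted p below 0.05. The sum of the endothelial genes was 29733 to 46947 in Cox10-deficient lungs against 29096 to 30063 in controls.

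Of the markers of other blood cells, those of erythroid cells were abundant and the others summed to far less than the macrophage genes. Of 13 markers of monocytes and neutrophils 3 could be tested in the Rptor line and none passed by limma (0 at an unadjusted p below 0.05), with Csf3r at 0.081 and Plac8 at 0.18, and Mpo, Elane and Ly6c2 were under 10 in all 6 samples. Their sum was 279 to 660.4 in controls and 364 to 411 in deficient lungs. Of 13 lymphocyte markers 3 could be tested and Thy1, which mesenchymal and endothelial cells also make, was higher (1.15, adjusted p = 0.0197). The T cell genes Cd3e and Cd3d were at 0 in all samples of the line, and the lymphocyte sum was 157 to 183 and 218 to 331. None of 6 mast cell and megakaryocyte genes passed by limma (1 at an unadjusted p below 0.05), with Itga2b at 0.05, Ppbp at -0.45 and sums of 433 to 516 and 332 to 468. None of 4 erythroid genes did (0 at an unadjusted p below 0.05), with Alas2 at 0.33, Slc4a1 at 0.60 and sums of 2229 to 2965 and 2778 to 5003. No gene of these 4 lists passed by limma in the Tfam line, where 1, 1, 2 and 0 had an unadjusted p below 0.05 in the order given, or in the Cox10 line, where 0, 0, 0 and 1 did. In the Cox10 line the monocyte and neutrophil sum was 214 to 1111 in controls and 251 to 408 in deficient lungs. Timd4 and Vsig4, markers of other resident macrophages, stayed under 10 in all 6 samples of the Rptor and Cox10 lines.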

How the data were processed

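Lungs of 14.5 dpc embryos were analysed as 18 samples in 6 groups of 3, grouped by the genotype in the labels. Per the labels, the authors extracted RNA with a Qiagen column kit, and the submitters' processing notes name Trim Galore, HISAT2, featureCounts, DESeq2 and the mm10 build, without versions. The methods name a BGI machine and the labels an Illumina library protocol. The deposited tables, 1 for each line, hold a signal: read counts per gene that the authors had divided by a size factor for each sample, in steps of 0.978 to 1.02. Columns with the authors' fold changes and p-values were not used. A symbol that reads as a date occurs in 27 entries of each line's file, and none of them is named here. The normalised counts summed to 27727202 to 29611064 per sample, with 17671 to 17910 genes above 0.

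Genes that reached 10 in 3 or more of the 6 samples of a line were tested on log2(value + 1) with limma 3.58.1 in R 4.3.3, control against deficient, with moderated variances that follow the mean and Benjamini-Hochberg adjustment over all genes tested. Differences between lines were tested in a fit of all 18 samples over 14548 genes. Each interval is a 95% interval of the fit that gave its estimate. The scripts were tested on simulated data. In the Rptor line the deviations of same-numbered control and deficient samples correlated across genes (0.221, 0.33 and 0.259), so a fit with the number as a block was run beside the main fit. Samples of different numbers were not compared, so these correlations do not show that the samples were paired. The 10 genes and all gene lists were chosen with earlier results of these data known, and they give no independent support. Named were the 10 genes, up to 4 genes of each list that passed in at least 1 line, by size, or the 2 most abundant where none passed, and the 10 genes most alike in pattern, except some that are not reported here. Other genes (Csf1, Il34, Cx3cl1, Runx1, Ikzf1, Cebpb, Batf3, C3, Cebpa, C1ra, Serping1, Itgam, Itgb2, Cybb, Fcgr3, Fcer1g, Mertk, Axl, Tyro3, Acta2, Cd74, H2-Aa, Tcf21, Tbx4, Tbx5, Foxf1, Col3a1 and the genes under 10 or at 0) were named after their values were seen. Coordinates of genes and transcript lengths are from GENCODE on GRCm38.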

Additional observations from a re-analysis of the deposited data

Results flagged for a closer look

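The 7 differences between lines that passed the test were singled out because the same contrast, deficient against control, gave different effects in separate lines. Between the Rptor and Tfam lines they were Csf1r (0.66), C1qa (1.01), C1qb (0.76) and Cx3cr1 (0.57). Between the Rptor and Cox10 lines they were Csf1r (0.52), C1qa (0.96) and Cx3cr1 (0.69). Each is the log2 fold change of the Rptor line minus that of the other line. On the scale of mesenchymal or endothelial genes none of the 7 passed, and on the mesenchymal scale the differences of Cx3cr1 with Tfam and Csf1r with Cox10 were below 0 (-0.043 and -0.03).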

How the results depend on the processing

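Other pseudocounts (0.1 and 10), a mean of at least 50 and trimmed-mean-of-M-values factors changed no call of a single gene among 37, 37, 35 and 37 values. edgeR and DESeq2 on recovered reads were not run, so the calls rest on limma alone. With adjusted p below 0.01, 5 of the 10 genes passed in the Rptor line, and 1 differed between Rptor and Tfam and 1 between Rptor and Cox10. Of 10 passing in the Rptor line, 6 to 9 remained when 1 sample was left out, and the counts of differing genes were then 2 to 4 for Tfam and 1 to 8 for Cox10. With Xist, the transcript of the inactive X chromosome, as a covariate meant for sex, 1 gene passed in the Tfam line (Csf1r, adjusted p = 0.0187), where its values were graded. Lyz2 and Fcgr1 were lost in the Rptor line with this covariate (0.0737 and 0.0637), as they were with no filter on low values (0.0622 and 0.0596). All 18 samples in one fit gave 1 gene in the Cox10 line and lost Lyz2 in the Rptor line (0.298). C1qb no longer differed between Rptor and Tfam with no filter (0.0548) or with totals as the scale (0.0502).

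With the replicate block 5 genes differed between Rptor and Cox10, C1qb and Aif1 being added, and Lyz2 was lost in the Rptor line. No other call of the 10 genes changed. The correlations of same-numbered samples were -0.312, -0.207 and 0.151 in the Tfam line and 0.447, 0.202 and 0.049 in the Cox10 line. In every line the labels give only a replicate number.

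Relative to mesenchymal genes, a scale chosen after seeing the data, 2 genes passed in the Rptor line, 1 differed between Rptor and Tfam (Mrc1, -0.49) and 0 between Rptor and Cox10. Relative to endothelial genes the counts were 4, 0 and 0. Among all 14940 genes of the Rptor line 12269 and 8928 passed on these scales, in either direction, against 5202 in the main fit. On these scales the median of all genes moves to -0.74 and -0.38 (Rptor), -0.13 and -0.13 (Tfam) and -0.20 and -0.28 (Cox10), and the directions that turned are these. On the mesenchymal scale Cd68, Mrc1, Lyz2 and Fcgr1 were at -0.084, -0.39, -0.25 and -0.14 in the Rptor line, and Mrc1 at -0.042 on the endothelial scale. In the Tfam line Cd68, C1qa and C1qb were at -0.016, -0.017 and -0.011 on either scale. In the Cox10 line Cd68, Mrc1, Ptprc, C1qa, C1qb, Cx3cr1, Lyz2 and Fcgr1 were at -0.013, -0.19, -0.041, -0.041, -0.062, -0.067, -0.18 and -0.13 on the mesenchymal scale and at -0.099, -0.27, -0.13, -0.13, -0.15, -0.15, -0.27 and -0.22 on the endothelial scale. The differences of Cx3cr1 between Rptor and Tfam and of Csf1r between Rptor and Cox10 were -0.043 and -0.03 on the mesenchymal scale. The cause was not tested.

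Leaving out 1 sample moved Aif1 in the Tfam line from -0.0053 to 0.58. In the Cox10 line it moved Cd68 from -0.037 to 0.30, Mrc1 from -0.0028 to 0.033, C1qa from -0.091 to 0.33, C1qb from -0.03 to 0.28, Lyz2 from -0.59 to 0.47 and Fcgr1 from -0.17 to 0.29. Aif1, at 20.8 to 47.9 in the Tfam line, had an interval from -0.45 to 1.00 there, and changes inside it cannot be told from 0.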
